A study of Homo sapiens with 6 samples.

Results

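Forkhead transcription factors are DNA-binding proteins that share the winged-helix forkhead domain, and their genes carry the symbol FOX with a letter for the subfamily and a number for the member. They were examined here in a map of open chromatin of hTERT-RPE1, a human retinal pigment epithelial cell line immortalised with telomerase. Members were all protein-coding RefSeq genes on chromosomes 1 to 22 and X whose symbol is FOX, a letter from A to S and a number, pseudogenes excluded, which gave 52 of 19974 genes. The symbol rule also takes in FOXL2NB, a neighbour of FOXL2 that encodes no forkhead domain. It takes in FOXO3B, a near copy of FOXO3, and 6 near-copies that make up the FOXD4 group (FOXD4, FOXD4L1, FOXD4L3, FOXD4L4, FOXD4L5 and FOXD4L6). Reads from such copies can be assigned to the wrong one or dropped, so values of these members are uncertain.

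All cells were wild type, the labels give no treatment, and there was no second condition. ATAC-seq, in which the transposase Tn5 cuts and tags accessible DNA in isolated nuclei, was done in 6 libraries. Their titles give 2 sets of 3, R1 and R2. It is not stated how the sets differ, whether libraries came from separate cultures, or whether the line is 1 clone. The authors deposited 1 pooled peak list per set, so every value below is that of a pooled list, there is no replicate spread, no test was made, and differences are descriptions. The R1 list held 142865 peaks on these chromosomes and the R2 list 134351, and the median pileup, the number of fragments over a peak's summit, was 72 in each. Of 14 marker genes of retinal pigment epithelium, 9 (64.3%) had a peak at a gene end in both lists, beside 73.9% of all genes. PMEL, MERTK and MITF had the strongest by enrichment over background, and other genes at the same ends were not looked for. Only 4 of the 14 (28.6%) reached the median enrichment in both lists, beside 57.3% of all genes. RPE65 and LRAT, the defining genes of the visual cycle, were among the 5 markers with no such peak in either list.

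Forkhead proteins fall into groups with different duties. FOXO proteins are held in the cytoplasm when AKT phosphorylates them and 14-3-3 proteins bind them, and in the nucleus they switch on genes for stress resistance and cell cycle arrest, whereas FOXM1 drives genes of mitosis. FOXA, FOXC, FOXD, FOXE, FOXF, FOXI and FOXL members mostly direct the development of particular tissues, FOXA proteins are known for binding closed nucleosomal DNA, and FOXP proteins mainly repress. In the eye, FOXC1 is known for the anterior segment, FOXE3 for the lens, FOXD1 for the temporal retina, and FOXN4 for retinal interneurons.

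The sequences around 6 start sites are shown as examples. Forkhead genes with a peak near the start in both lists had more CpGs in the promoter at the median than the others. That comparison counts the FOXD4 group, whose values are uncertain, and several CpG-rich members outside it had no such peak. The 6 genes show members of both kinds. Each is 300 bases from RefSeq (GRCh38.p14), from 250 bases before the start site to 50 after it, 5′ to 3′ on the gene's strand, with every CpG dinucleotide in capitals. FOXO1 and FOXC1 have many CpGs, and in both lists a peak over the start of more than the list's median enrichment over background. FOXR2, with no peak near it, has 1 CpG. FOXP2 has 1 CpG and still had a peak over this start in both lists. FOXI3 and FOXD3 are rich in CpG, and yet FOXI3 had no peak within 50 kb and FOXD3 had a weak one in R2 alone.
FOXO1 (chr13:40666592-40666891, minus strand, 33 CpGs, 68.0% GC): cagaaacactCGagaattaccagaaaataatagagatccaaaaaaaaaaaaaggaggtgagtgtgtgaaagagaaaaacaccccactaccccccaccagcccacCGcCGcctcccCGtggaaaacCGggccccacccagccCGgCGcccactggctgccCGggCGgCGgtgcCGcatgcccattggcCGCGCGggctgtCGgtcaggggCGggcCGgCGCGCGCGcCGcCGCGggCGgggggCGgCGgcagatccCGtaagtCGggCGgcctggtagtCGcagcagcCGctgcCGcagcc
FOXC1 (chr6:1609665-1609964, plus strand, 40 CpGs, 72.7% GC): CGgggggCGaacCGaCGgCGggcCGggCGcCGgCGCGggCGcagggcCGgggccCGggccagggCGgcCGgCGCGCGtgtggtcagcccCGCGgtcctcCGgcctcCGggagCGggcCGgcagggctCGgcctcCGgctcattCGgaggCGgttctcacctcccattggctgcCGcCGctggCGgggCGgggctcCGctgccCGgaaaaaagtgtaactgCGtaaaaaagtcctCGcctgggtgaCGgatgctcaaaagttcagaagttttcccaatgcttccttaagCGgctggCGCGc
FOXP2 (chr7:114414565-114414864, plus strand, 1 CpG, 38.7% GC): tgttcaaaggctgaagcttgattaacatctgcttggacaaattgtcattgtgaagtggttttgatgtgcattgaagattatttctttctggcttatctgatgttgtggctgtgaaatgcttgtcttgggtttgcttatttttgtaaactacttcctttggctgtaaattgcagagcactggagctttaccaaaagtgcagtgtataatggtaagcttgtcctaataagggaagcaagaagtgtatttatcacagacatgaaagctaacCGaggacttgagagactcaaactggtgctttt
FOXI3 (chr2:88452644-88452943, minus strand, 39 CpGs, 78.0% GC): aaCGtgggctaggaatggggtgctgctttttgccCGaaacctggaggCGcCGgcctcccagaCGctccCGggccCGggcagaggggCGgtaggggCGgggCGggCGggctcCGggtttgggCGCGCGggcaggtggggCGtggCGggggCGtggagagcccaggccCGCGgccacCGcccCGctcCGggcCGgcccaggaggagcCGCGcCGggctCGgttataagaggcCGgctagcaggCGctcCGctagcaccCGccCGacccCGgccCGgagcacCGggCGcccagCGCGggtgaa
FOXD3 (chr1:63322317-63322616, plus strand, 29 CpGs, 66.3% GC): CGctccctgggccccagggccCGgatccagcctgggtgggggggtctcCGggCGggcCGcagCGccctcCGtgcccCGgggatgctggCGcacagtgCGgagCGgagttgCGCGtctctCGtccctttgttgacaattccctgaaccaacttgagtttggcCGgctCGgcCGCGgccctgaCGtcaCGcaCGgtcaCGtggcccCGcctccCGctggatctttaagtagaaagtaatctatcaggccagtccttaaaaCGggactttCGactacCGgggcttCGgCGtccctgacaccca
FOXR2 (chrX:55623150-55623449, plus strand, 1 CpG, 35.0% GC): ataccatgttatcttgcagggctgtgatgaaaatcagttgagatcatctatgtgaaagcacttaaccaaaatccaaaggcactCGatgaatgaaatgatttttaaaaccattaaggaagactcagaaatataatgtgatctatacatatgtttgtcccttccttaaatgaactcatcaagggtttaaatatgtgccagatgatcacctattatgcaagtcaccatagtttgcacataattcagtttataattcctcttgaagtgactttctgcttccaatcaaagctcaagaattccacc

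A gene-end peak is a peak that overlaps the window of 1000 bp to either side of either end of the RefSeq gene interval. In this sense 35 of 52 forkhead genes (67.3%) had an open end in both lists, beside 73.9% of all protein-coding genes. R1 alone marked 37 members (75.5% of all genes) and R2 alone marked 37 (75.0% of all genes). All members of FOXB, FOXC, FOXF, FOXJ, FOXK, FOXM, FOXN, FOXO, FOXQ and FOXS were marked in both lists. FOXA and FOXP missed 1 member each, FOXA2 and FOXP3. FOXD had 2 of 9, FOXE 1 of 2 and FOXL 3 of 4, and FOXH, FOXI and FOXR had none. The whole family lay under that background, but without FOXL2NB, FOXO3B and the FOXD4 group it was 33 of 44 (75.0%), above it. Most members without a gene-end peak in both lists were in FOXD, FOXI and FOXR.

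The strength of a peak is given by 2 values of its own list. The fold is the authors' enrichment over local background, and the pileup is the number of fragments over the summit, recovered from the fold and the p-value. Forkhead gene ends had lower medians of both than gene ends in general. The strongest gene-end peak of the 35 members had folds of 6.29 (R1) and 6.54 (R2) at the median, beside 7.43 and 7.49 over all genes with an end peak in both lists. The median pileup was 216 and 248 fragments, beside 287 and 303. At least the median fold of the list was reached in both lists by 22 members (42.3% of 52), beside 57.3% of all genes. By pileup 29 members (55.8%) reached the list's median in both lists, beside 65.7%.

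The lists placed most members on the same side. By fold 22 were above the median in both lists and 9 below it in both, among them FOXB1, FOXB2, FOXL1, FOXN1, FOXN4, FOXO3, FOXP1 and FOXS1. FOXC2 was above in R1 alone, and FOXL2, FOXL2NB and FOXQ1 were above in R2 alone. By pileup 5 members were below in both lists, FOXB1, FOXB2, FOXN1 and FOXN4 among them, and FOXQ1 was above in R2 alone.

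**Figure D1:**
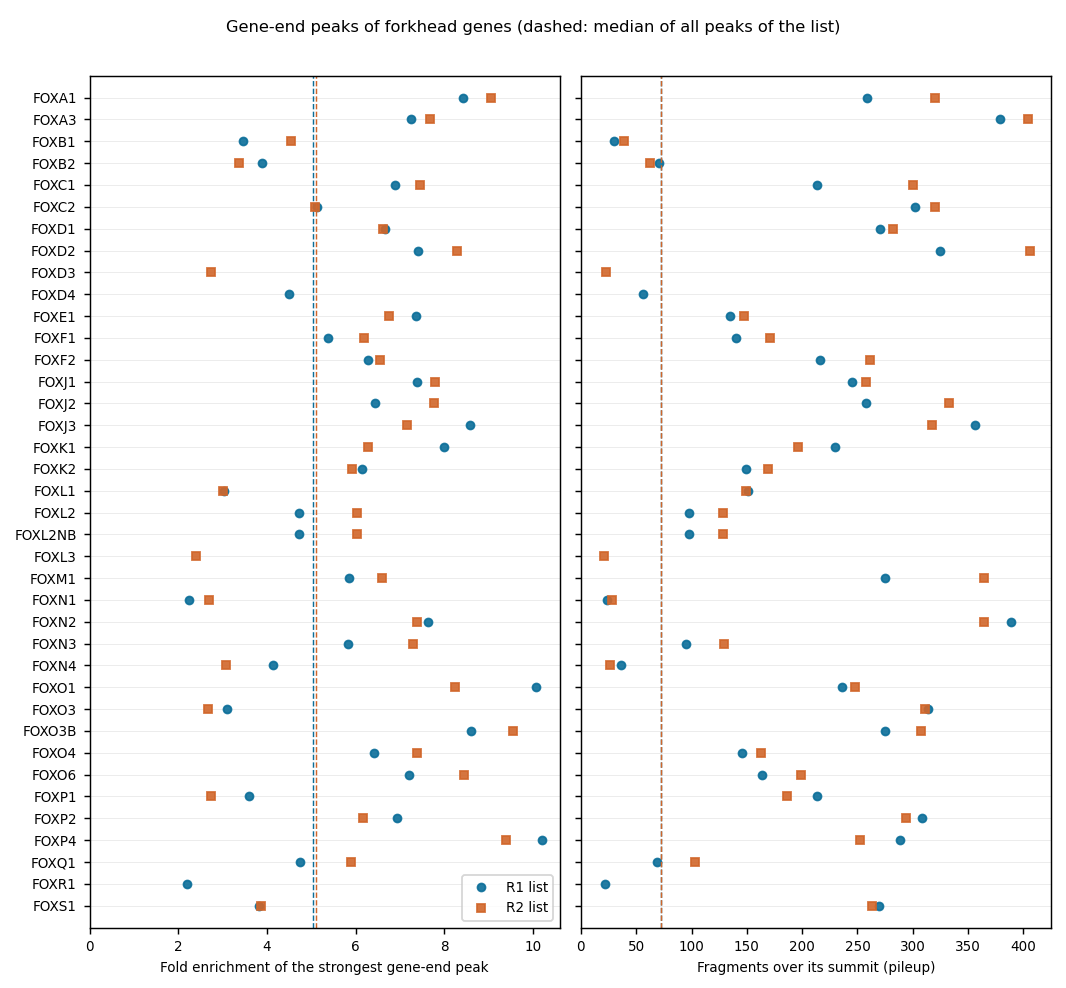
Fold enrichment (left panel) and pileup in fragments (right panel) of the strongest gene-end peak of forkhead genes with a peak in at least 1 list, as points for R1 and squares for R2; dashed lines are the medians over all peaks of a list. FOXP4 and FOXO1 lie highest by fold in R1, with 10.21 and 10.06, and FOXO3 stands out by a fold of 3.09 and 2.67 with 314 and 311 fragments.

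The FOXO genes, effectors of insulin and stress signalling, were all open, but in different ways. FOXO1 had a fold of 10.06 (236 fragments) in R1 and 8.23 (248 fragments) in R2, with summits 155 and 162 bp upstream of its start at chr13:40666641, inside the sequence shown above. FOXO3 had folds of only 3.09 and 2.67 from more fragments, 314 and 311. The local background there was 100.9 and 115.9 fragments, beside medians of 29.9 and 31.2 over the members, so the low fold of FOXO3 went with a high background and not with few fragments. Its gene-end peak lay upstream of the start in both lists, and a separate region, chr6:108559772-108561378, held folds of 2.31 and 2.39 with 273 and 322 fragments.

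FOXO4, the X-linked member, had folds of 6.43 and 7.38 (146 and 163 fragments), with the summit 434 bp downstream of its start in both lists. FOXO6, known from brain, had a higher fold at its far end, with 7.21 and 8.44 (164 and 199 fragments), than at its start, with 3.95 and 4.59, where the fragments were more (223 and 273). FOXO3B had 8.61 and 9.55 (275 and 307 fragments) in a region that is also an end of ZNF286B, a transcribed pseudogene. By fold FOXO3B was therefore among the highest and FOXO3 among the lowest members, and the near identity of the genes makes the assignment of reads between them uncertain.

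FOXM1, the mitotic regulator, had a gene-end peak of fold 5.86 (275 fragments) in R1 and 6.60 (364 fragments) in R2. That region is shared with RHNO1, a checkpoint gene at the same end, and the peak cannot be assigned to either gene. The other end of FOXM1, next to TEX52, had folds of 1.96 and 2.10 (45 and 47 fragments). FOXK1 and FOXK2, which recruit chromatin regulators and act on glycolysis and autophagy genes, had 8.0 and 6.27 (230 and 196 fragments) and 6.15 and 5.92 (149 and 169 fragments). The FOXK1 summit lay 1698 bp downstream of the start in both lists.

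All 3 FOXJ genes were above the median of both lists. FOXJ3 had 8.58 and 7.16 (356 and 317 fragments) and FOXJ2 had 6.43 and 7.77 (258 and 333 fragments). FOXJ1, the master regulator of motile cilia, had 7.39 and 7.79 (245 and 258 fragments) in a region that is also at an end of RNF157, so it is not FOXJ1's alone. FOXN2 and FOXN3, the latter a repressor linked to checkpoint control, had 7.64 and 7.38 (389 and 364 fragments) and 5.82 and 7.29 (95 and 129 fragments). FOXN1, the thymic epithelial regulator, was the lowest member by mean percentile of fold, with 2.25 and 2.70 (24 and 28 fragments). FOXN4 had 4.14 (36 fragments) in R1 and 3.07 (26 fragments) in R2, but at separate peaks, with summits 284 and 982 bp upstream of its start. At the first of these regions R2 had 2.50 (21 fragments), and at the second R1 had 2.69 (23 fragments). Both are also at an end of MYO1H, so they are not FOXN4's alone. FOXN2 and FOXN3 were thus above FOXN1 and FOXN4 by fold and by fragments in both lists.

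Among the FOXP genes, FOXP4 had the highest mean percentile of fold of the whole family. Its far end had 10.21 and 9.39 (288 and 252 fragments), and its start had 9.76 and 8.69 (407 and 395 fragments). FOXP1, a repressor active in many tissues, had 3.59 and 2.74 at its outer start, shared with the divergent transcript FOXP1-DT, but from 213 and 186 fragments over a background of 58.5 and 67.2. FOXP2, known for its role in speech, had 6.93 and 6.17 (308 and 294 fragments) at the outer end of its interval. At the start of the sequence shown above, deep inside the interval, it had 5.52 and 5.80 (59 and 62 fragments), so fold was similar at both starts and the number of fragments was not. FOXP3, the regulator of regulatory T cells, had no gene-end peak, and its nearest shared region lay 3992 bp away.

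The developmental members ranged from strong to barely marked. FOXA1, an endodermal pioneer factor, had 8.42 and 9.05 (259 and 320 fragments) in a region also at an end of TTC6, and FOXA3 had 7.26 and 7.68 (379 and 404 fragments), with summits 1219 and 1478 bp upstream of its start, in a region also at an end of SYMPK. FOXA2, by contrast, had no peak within 50 kb in either list. FOXC1 had 6.89 and 7.45 (213 and 300 fragments), with the summit 9 bp upstream of the start in both lists. FOXC2, a regulator of lymphatic and venous vessels, had 5.14 and 5.08 (302 and 320 fragments), shared with FOXC2-AS1.

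FOXF1, a gene of lung and gut mesenchyme, had 5.39 and 6.20 (140 and 171 fragments) in a region shared with the long non-coding RNA gene FENDRR, and FOXF2 had 6.29 and 6.54 (216 and 261 fragments). FOXL1, of gut mesenchyme, had 3.04 and 3.02 (151 and 149 fragments), again a low fold from many fragments. FOXS1, whose end lies at DUSP15, had 3.81 and 3.86 (269 and 263 fragments). With FOXO3 and FOXP1 these were the 4 members below the median of both lists by fold and above it in both by pileup. FOXQ1 had 4.75 and 5.91 (69 and 103 fragments). FOXL2, the regulator of ovarian granulosa cells, and FOXL2NB have starts 80 bp apart on opposite strands and a single region, with 4.73 and 6.03 (98 and 128 fragments), which cannot be told apart between them.

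FOXD2 and FOXD1 were the open members of the FOXD subfamily, with 7.40 and 8.30 (325 and 406 fragments) and 6.67 and 6.62 (270 and 282 fragments). FOXE1, of the thyroid, had 7.37 and 6.75 (135 and 147 fragments), whereas FOXE3 had no gene-end peak. FOXB2 had 3.90 and 3.37 (71 and 62 fragments), and FOXB1, of the hypothalamus, 3.47 and 4.55 (30 and 39 fragments). For FOXB1 the peak present in both lists lay at the far end of the gene, and its start window held a peak in R1 alone. Both FOXB genes had at most 71 fragments over the summit in either list.

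A gene-end peak in 1 list only was found for 4 members (2.84% of all genes). FOXD3, of the neural crest, had a fold of 2.73 (23 fragments) in R2, and FOXL3 had 2.41 (21 fragments) in R2. FOXR1 had 2.20 (22 fragments) in R1. These 3 are close to the weakest peaks of the lists, whose lowest background is 7.93 fragments in R1 and 7.79 in R2. FOXD4 differed, with 4.50 (56 fragments) in R1 in a region that is also an end of LINC01388. That region held an R2 peak too, beyond the window, so FOXD4 had a shared region at its end without counting as marked in both lists.

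No gene-end peak in either list was found for 13 members (23.3% of all genes). They were FOXA2, FOXE3, FOXH1, FOXI1, FOXI2, FOXI3, FOXP3, FOXR2 and the 5 FOXD4-like genes. For some of them a shared region lay just outside the window, at 1581 bp for FOXH1, a SMAD partner of nodal signalling, 3992 bp for FOXP3, 4386 bp for FOXE3 and 4769 bp for FOXI1, a regulator of ionocytes. The nearest shared region was 42339 bp away for FOXI2, 87616 bp for FOXI3, 98466 bp for FOXA2 and 84374 bp for FOXR2. For the FOXD4-like genes it was between 139131 bp (FOXD4L1) and 232072 bp (FOXD4L4). Those copies lie in duplicated stretches, and the handling of reads that map to several places is not stated in the labels. The promoter windows of FOXD4 and FOXD4L6 are 97.7% identical, whereas that of FOXD4 is 48.3% to 50.7% identical to those of the other 4 copies. Each window is placed by the gene's annotated start, so a low identity can come from differently placed starts and does not show that copies differ. The letters TATAAA, on either strand, stand at bases -147, -106 and -104 in FOXD4L3 and -232, -191 and -189 in FOXD4L4. Each match thus lies farther upstream in FOXD4L4, and these windows are 71.7% identical. FOXD4 had 9 shared regions within 50 kb and FOXD4L6 had 0. Whether mapping plays a part in that difference was not tested.

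Start sites could be placed for the 41 members with a RefSeq promoter entry (not, for example, for FOXA2, FOXC2, FOXE3, FOXF1, FOXH1, FOXJ1, FOXL1, FOXM1, FOXN2 and FOXS1). A peak within 1000 bp of the start was present in both lists for 26 of 41 (63.4%), beside 72.2% of all genes with an entry. Without FOXL2NB, FOXO3B and the FOXD4 group it was 24 of 33 (72.7%). The start itself lay inside a peak in both lists for 17 members (41.5%), beside 61.6%. FOXA3, FOXB2, FOXF2, FOXK1, FOXK2, FOXN1, FOXN4, FOXO3 and FOXO6 had a peak near the start in both lists but not over it in both. At the other end of the gene 4 members had a peak in both lists (9.76%), beside 21.2%. FOXO6, FOXJ3 and FOXP4 had both ends open and FOXB1 the far end alone. The members are short genes, with a median length of 4904.5 bp beside 24170.5 bp, so both windows often lie close together.

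Promoter composition differed between marked and unmarked members. The 26 members with a start-site peak in both lists had a median of 32 CpGs in the 300 bases (range 1 to 55) and a median GC content of 70.2%. The other 15 had a median of 13 (range 1 to 39) and 55.7%. They include the whole FOXD4 group, with 2 (FOXD4L5) to 16 (FOXD4) CpGs, whose peak values are uncertain. These medians were not computed without that group. Outside it, the unmarked members were FOXI3 with 39 CpGs, FOXL3 with 35, FOXD3 with 29, FOXI2 with 24 and FOXR1 with 22. FOXI1 had 16, FOXB1 and FOXP3 had 10 each, and FOXR2 had 1. The CpG ratio compares the number of CpGs with that expected from the C and G content, and its median was 0.81 in the members and 0.76 in all genes. At a ratio of 0.8 or more 17 of 21 members were marked (92.6% of all such genes), the others being FOXD3, FOXI3, FOXL3 and FOXR1. From 0.6 to under 0.8 it was 6 of 9 (85.7%), from 0.4 to under 0.6 it was 2 of 7 (60.6%), with FOXN1 and FOXN4, and under 0.4 it was 1 of 4 (28.9%), with FOXP2. The unmarked members of the 2 lowest classes include 5 FOXD4-like genes, whose values are uncertain.

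**Figure D2:**
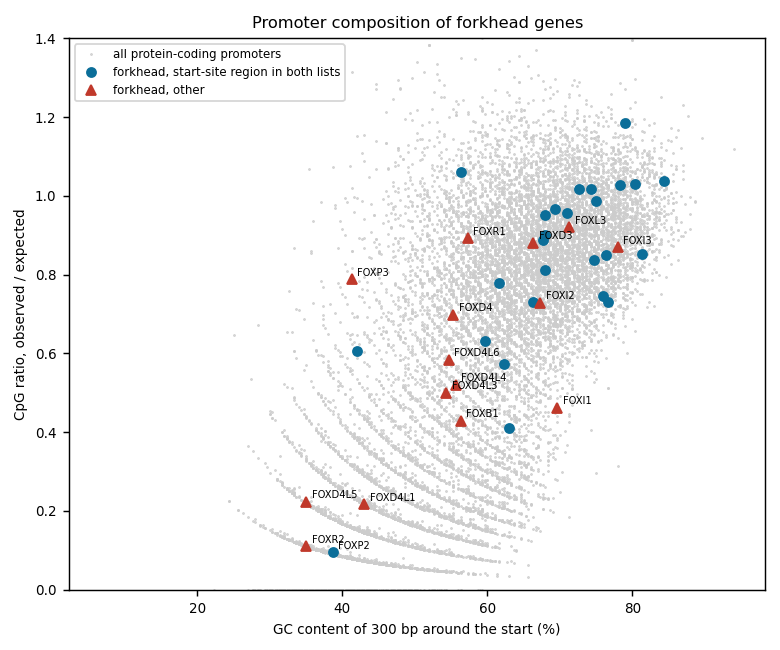
GC content (horizontal axis, %) and CpG ratio (vertical axis, observed over expected) of the 300 bases around the start, for all protein-coding genes (grey) and the 41 forkhead genes with an entry (circles: start-site peak in both lists; triangles, named: the others); genes above the top of the axis are not drawn. Most circles lie at high GC and CpG ratio, FOXP2 is the circle at the lowest ratio, and FOXI3, FOXD3, FOXL3 and FOXR1 are triangles among the CpG-rich genes.

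The same 300 bases were searched on both strands for 7 short motifs. The forkhead motif GTAAACA was found in 1 of 41 members, FOXO4, at base 23 after the start, and in 2.62% of all promoters. The GC box GGGCGG was in 29 members (70.7%), beside 58.5%, and stood 5 times in FOXO1 and 6 times in FOXI3. The CCAAT box CCAAT was in 11 (26.8%), beside 36.3%, among them FOXO1 at base -69 and FOXC1 at -86. The TATA box TATAAA was in 6 members (14.6%), beside 9.64%, at -30 in FOXA3 and -31 in FOXP3 and also in FOXR2, FOXD4L3, FOXD4L4 and FOXD4L5. Of these only FOXA3 had a start-site peak. The AP-1 motif TGANTCA was in 3 members (5.76% of all), the E-box CACGTG in FOXD3, FOXK1 and FOXP4 (8.87%) and the ETS motif CCGGAAG in FOXR1 alone (14.2%). These are matches of letters in the printed window and not sites, and no match says only that the letters are not there. Matches of different motifs shared bases in 0 cases among the members. Matches of the same motif did so in 7 pairs, among them GC boxes in FOXI3 and TATA boxes in FOXD4L3 and FOXD4L4. Match counts are therefore not counts of separate stretches.

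Shared regions are joined R1 and R2 peaks with at least 1 of each, and those within 50 kb of either gene end describe the surroundings. Forkhead genes had a median of 7, beside 9 over all genes. The windows around the 2 ends of a short gene overlap, so less sequence was searched there than around a long gene. Members are shorter than genes in general (median 4904.5 beside 24170.5 bp), and the counts were not adjusted for length. FOXO3 had the most, 23, followed by FOXK2 with 20, FOXO6 with 17, FOXJ3 with 16 and FOXK1 with 15. At least 20 were found around these first 2 members, beside 4.39% of all genes. None were found around 8 members (FOXA2, FOXI3, FOXR2 and the 5 FOXD4-like genes), beside 5.95% of all genes. Counts differed within a subfamily, with 7 around FOXO1 (110975 bp long) and 6 around FOXO4 (7682 bp) beside the 23 around FOXO3 (124950 bp). FOXH1 had 11 nearby regions without a gene-end peak and FOXR1 had 12 with a weak peak in R1 alone, whereas FOXB1 had 1 although an end was marked. With a window of 25 kb the median was 5 for the members and 5 for all genes.

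**Figure D3:**
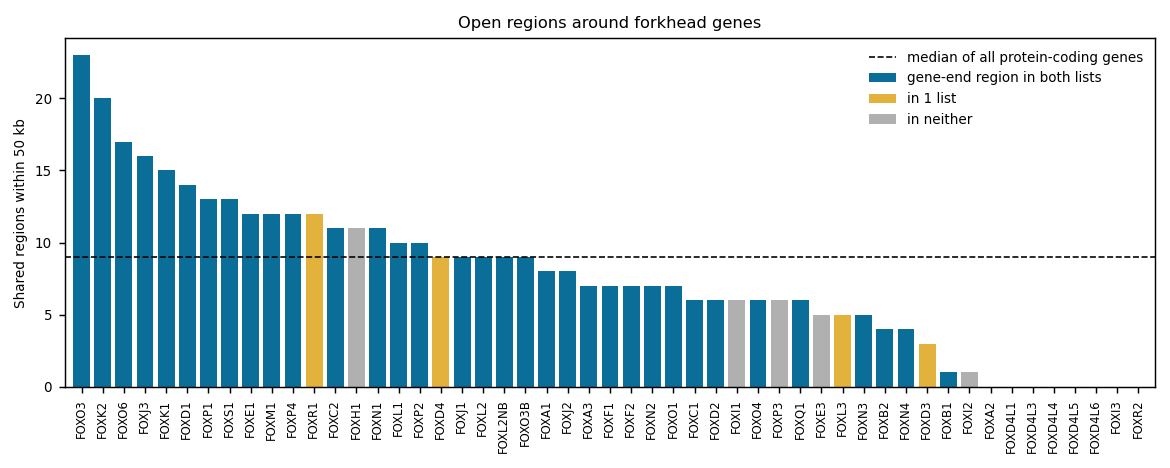
Number of shared regions within 50 kb of either gene end (vertical axis) for forkhead genes, coloured by the presence of a gene-end region in both lists, 1 list or neither; the dashed line is the median of 9 over all protein-coding genes. FOXO3 and FOXK2 stand highest with 23 and 20, and 8 genes at the right have 0.

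Counted once each, 372 shared regions lay within 50 kb of a forkhead gene, 45 at a gene end and 327 beyond, of which 73 were inside a member's interval. Regions at the ends were wider, with a median of 1468 bp beside 851 bp, and had more fragments, at a median pileup percentile of 83.2 beside 61.3. By fold they hardly differed, with a median percentile of 57.4 at the ends and 55.8 beyond. Over all genes those percentiles of fold were 65.5 and 51.9. Most peaks in these surroundings were present in both lists. Of 464 R1 peaks 83.0% overlapped an R2 peak, and of 412 R2 peaks 90.5% overlapped an R1 peak.

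The region of best fold was usually away from the gene ends, although it could lie inside the gene. Of 36 members with a shared region at an end, 32 (88.9%) had a region of better fold between 1 and 50 kb from an end, beside 81.2% of all such genes. By pileup it was 24 (66.7%), beside 58.3%. The highest by mean percentile of fold over both lists lay near FOXP3, at chrX:49235220-49236044, outside the gene, with 15.82 and 16.54 (240 and 261 fragments), although FOXP3 had no gene-end peak. Inside FOXP2, chr7:114345275-114346089 had 16.03 and 15.53 (155 and 150 fragments), centred 69133 bp upstream of the start site in the sequence shown. It lies more than 50 kb from either end of the gene and is not among the regions counted above. Near FOXF2, chr6:1436057-1437255 had 15.00 and 14.46 (225 and 217 fragments).

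Strong regions also lay near FOXJ1 (chr17:76181881-76182618, 14.93 and 13.60), FOXK1 (chr7:4631340-4632314, 14.16 and 14.28), FOXO3B (chr17:18697580-18698585, 13.23 and 14.55) and FOXJ2 (chr12:8026182-8027558, 12.12 and 13.04). Another lay inside FOXK2 (chr17:82586215-82586548, 13.40 and 13.21). FOXO1 had one at chr13:40672331-40673094, with 13.99 and 10.65. The FOXO1 region is centred 6071 bp upstream of the start. FOXI1, without a gene-end peak, had chr5:170100079-170101128 with 11.56 and 12.41 (122 and 131 fragments), centred 5294 bp upstream of its start. FOXO3, of low fold at its start, had chr6:108541764-108542639 with 10.44 and 12.56 (139 and 145 fragments), centred 17624 bp upstream. Nothing in these lists links a distant region to a gene, and exon positions were not used here.

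Several forkhead genes lie side by side and share such regions. On chromosome 16, FOXF1, FOXC2 and FOXL1 follow each other with gaps of 51406 and 8820 bp, which hold 5 and 2 shared regions. The best of them, chr16:86554727-86555872, had 11.30 and 11.28 (310 and 300 fragments) and is the region of best fold within 50 kb of all 3 genes. It was stronger by fold than the gene-end region of each, at 5.39 and 6.20 for FOXF1, 5.14 and 5.08 for FOXC2 and 3.04 and 3.02 for FOXL1. On chromosome 6, FOXQ1 and FOXF2 are 74817 bp apart with 7 regions between them, the best of which, chr6:1335099-1336419, had 210 and 197 fragments, with a fold of 9.23 in R2. FOXC1, farther along the same chromosome, had its best region at chr6:1595661-1597186, with 10.52 and 10.67 (171 and 161 fragments), centred 13492 bp upstream of the start. FOXE3 and FOXD2 on chromosome 1 are 19991 bp apart with 2 regions between, the better of which, chr1:47424155-47425014, had 10.70 and 9.88 (103 and 92 fragments).

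**Figure D4:**
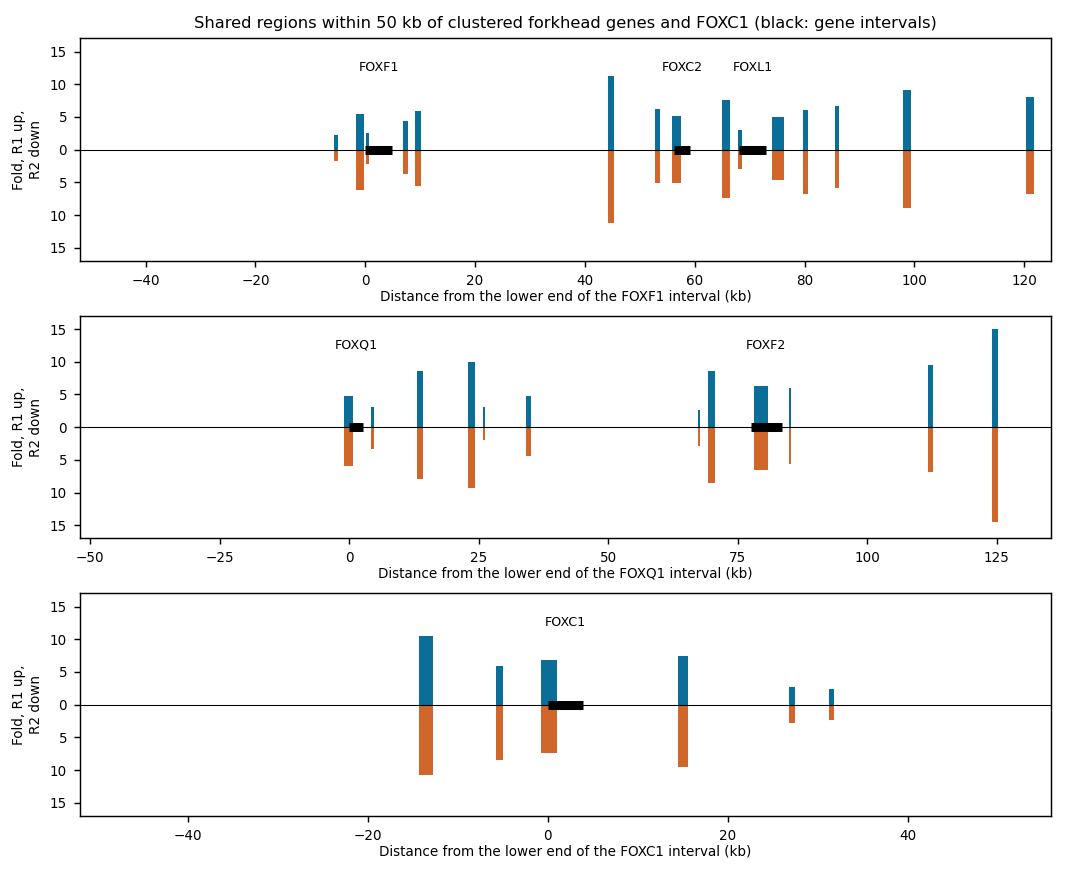
Shared regions within 50 kb of FOXF1, FOXC2 and FOXL1 (top), of FOXQ1 and FOXF2 (middle) and of FOXC1 (bottom), against the distance in kb from the lower end of the first gene's interval; bar height is the fold in R1 (upward) and in R2 (downward), bar width the region's extent, and black blocks are gene intervals. The tallest bar of the top panel, 11.30 and 11.28, stands between FOXF1 and FOXC2, and that of the middle panel, 15.00 and 14.46, beyond FOXF2.

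Of the members, 10 span over 50 kb, and their intervals differ in how many shared regions they hold. FOXP1 had 60 in 629271 bp, or 9.53 per 100 kb, and FOXP2 had 23 in 607439 bp, or 3.79. FOXN3 had 17 (3.67 per 100 kb) and FOXO1 had 3 (2.70). The densest were FOXO3 with 18 (14.4 per 100 kb), FOXK2 with 12 (14.1) and FOXP4 with 7 (12.5), beside a median of 5.58 per 100 kb over 6258 genes of over 50 kb. FOXP1 and FOXP2 are of nearly equal length, and FOXP1 held over 2 times as many regions although FOXP2 had the higher fold at its outer end. In FOXP1 the strongest region, chr3:70982374-70983463, had 12.60 and 12.33 (225 and 221 fragments) near the far end of the gene, centred 600810 bp from its start.

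**Figure D5:**
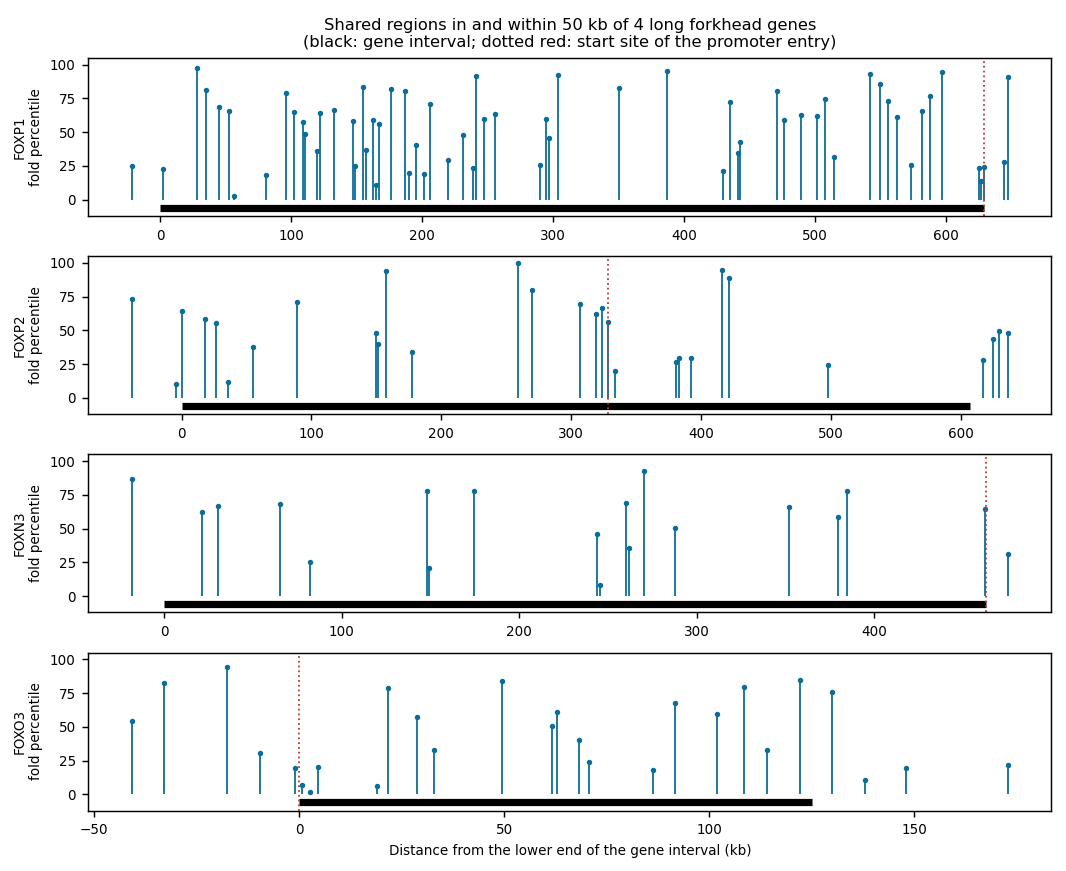
Mean within-list percentile of fold (vertical axes) of each shared region in and within 50 kb of FOXP1, FOXP2, FOXN3 and FOXO3, against distance in kb from the lower end of the interval; the black bar is the gene interval and the dotted line the start of the RefSeq promoter entry. Regions run along all of FOXP1, and the highest in FOXP2 stands left of the inner start.

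Genes that act with forkhead proteins were mostly open at an end. All 20 FOXM1 targets and partners had a gene-end peak in both lists (73.9% of all genes), with a median of 11.5 shared regions within 50 kb. CCNB2, a mitotic cyclin gene, had 12.30 and 11.47 (422 and 373 fragments), LIN9, of the complex that FOXM1 joins, 11.10 and 9.62 (385 and 368 fragments), and BIRC5, the survivin gene, 10.79 and 9.64 (309 and 246 fragments). All 20 genes that regulate FOXO proteins had one as well, with a median of 13 nearby regions. At least the median fold in both lists was reached by 17 of the FOXM1 targets and partners (85.0%) and 16 of the FOXO regulators (80.0%). Over all genes that share was 57.3%. SGK1, a kinase that phosphorylates FOXO proteins, had 14.99 and 12.36 (245 and 198 fragments), and PDPK1, the kinase upstream of AKT, had 9.18 and 9.83 (412 and 424 fragments). YWHAB, a 14-3-3 gene, had 12.11 and 7.06 (331 and 290 fragments).

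FOXO targets were marked in 22 of 28 cases (78.6%), beside 73.9% of all genes, with PRDX3, a mitochondrial peroxidase gene, at 13.07 and 12.77 (691 and 659 fragments), PDK4 at 10.08 and 10.39 (89 and 104 fragments) and CAT, the catalase gene, at 10.38 and 9.88 (459 and 412 fragments). FASLG and G6PC1, of immune killing and of liver glucose output, were among the 5 targets with a peak in neither list. All 15 cofactors were marked, including SMAD4 at 9.42 and 8.62 (379 and 368 fragments) and SIN3A at 8.31 and 9.26 (479 and 531 fragments). At least the median fold in both lists was reached by 15 of the 28 FOXO targets (53.6%) and 8 of the 15 cofactors (53.3%). Both shares are under the 57.3% of all genes. Many genes of these lists are used by most dividing cells, and the lists were not compared by a test.

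Other families of transcription factors were set beside the forkhead genes. Of 36 SOX and T-box genes 25 (69.4%) had a gene-end peak in both lists, with a median of 7.5 nearby regions. Of 46 nuclear receptor genes 36 (78.3%) did, with a median of 12. The share was 67.3% of forkhead genes and 73.9% of all genes. Without FOXL2NB, FOXO3B and the FOXD4 group it was 33 of 44 forkhead genes (75.0%), above the SOX and T-box share. At least the median fold in both lists was reached by 13 SOX and T-box genes (36.1%) and 19 nuclear receptor genes (41.3%). That share was 42.3% of forkhead genes, counting those copies, and 57.3% of all genes. MGA, with a T-box, had 11.66 and 13.80 (221 and 259 fragments), and NR1H3, a sterol receptor gene, 12.31 and 11.72 (399 and 371 fragments). SOX1, a neural gene, had no gene-end peak and no shared region within 50 kb.

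Markers of other cell types, whose part in the values above was not tested, were marked to different degrees, beside 73.9% of all genes. Gene-end peaks in both lists were found for 5 of 7 fibroblast and mesenchyme genes, 3 of 5 blood genes, 3 of 5 neuron genes, 2 of 5 hepatocyte genes, 2 of 7 photoreceptor genes and 1 of 5 endothelial genes. TTR stands in the lists of both pigment epithelium and hepatocyte genes. PDGFRB, COL1A1 and TWIST1 were the mesenchymal genes of best fold, with 7.75 and 6.86, 6.80 and 6.41, and 6.88 and 5.94. Strong peaks were also found at SPI1, a blood regulator, with 9.16 and 9.63, at APOA1, of liver, with 9.21 and 9.97, at SYT1, of neurons, with 8.27 and 7.63, and at NRL, of photoreceptors, with 8.14 and 8.33. By contrast PECAM1, ALB, NEUROD1 and CRX, defining genes of endothelium, liver, neurons and photoreceptors, had a peak in neither list. Other genes at the ends of marker genes were not looked for, so a peak at a marker gene may also be that of a neighbour.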

How the data were processed

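The 6 libraries of wild-type hTERT-RPE1 cells were made by tagging open DNA of isolated nuclei with Tn5, then amplified and selected by size, per the labels' protocols. Coordinates are those of hg38, the build named in the submitters' processing notes. The aligner, peak caller, correction for the Tn5 cut and depth of single libraries were not given in the sources used here. For each set the authors deposited 1 pooled list of peaks. Each peak has a score, which equals 10 times its deposited −log10 q-value and was not used. It also has a ratio, which is the fold enrichment of the summit over background in the authors' deposited list. The −log10 p-value and −log10 q-value are likewise the authors' deposited values. Fold, pileup and percentiles were used within a list only, and no counting interval was computed.

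Pileup and background were recovered from fold = (pileup + 1) / (background + 1), with the p-value read as a Poisson upper tail. This relation was inferred from the values. A whole number of fragments met the deposited −log10 p-value within 0.001 for 100% of peaks of both lists on chromosomes 1 to 22 and X. On simulated data the step recovered 100% of 19589 peaks, and 1000 window queries gave 0 errors. The simulation used the same relation, so it does not test the relation itself. Its backgrounds did not reach those of FOXO3 (100.9 and 115.9 fragments) or FOXS1 (69.8 and 67.4). Gene intervals and promoters came from RefSeq tables of GRCh38.p14, and 41 of 52 members matched a promoter entry by gene ID. An overlap of 1 bp counted. The gene table has no strand, hence the use of both gene ends.

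Members and gene lists were chosen with earlier results of these data known. A few genes count in the totals and are not reported here by name. Of the other lists the rule takes the 3 genes of best mean fold percentile with a gene-end peak in both lists and the first 2 in the alphabet with a peak in neither; some are not printed. Alternatives changed the q-value, the fold, the lists, the summit rule, the windows and the members. The software was Python 3.11.15 with numpy 2.4.6, pandas 2.3.3 and scipy 1.17.1, and matplotlib 3.10.9 and Biopython 1.88 for plots and alignment.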

Additional observations from a re-analysis of the deposited data

How the results depend on the processing

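Every value here is from 2 pooled lists, so no alternative could leave out a library and no spread between libraries was computed. No paired analysis was possible because each list pools the libraries of a set and no value carries a replicate number. The count of forkhead genes open at an end in both lists (35 of 52) stayed between 31 and 39 under the alternatives for q-value, list, summit and window, and was 33 of 44 (75.0%, beside 73.9% of all genes) without FOXL2NB, FOXO3B and the FOXD4 group, which turns the difference from the background. With peaks of at least the median fold it was 22, beside 57.3% of all genes. The start-site count (26 of 41) stayed between 23 and 28 or, with either list, 29, was 24 of 33 (72.7%, beside 72.2%) without those copies, which removes the shortfall, and was 17 with peaks of at least the median fold. The median number of shared regions within 50 kb (7) was 4 with peaks of at least the median fold and 13.5 with a window of 100 kb, where all genes had 5 and 16; the other alternatives gave 5 to 10, and with a window of 25 kb members and all genes both had 5. The drop at the median fold follows in part from its construction, which keeps the upper part of each list. Peaks of about 20 to 30 fragments, as at FOXD3, FOXL3, FOXN1 and FOXR1, are near the lowest that either list holds, so weaker accessibility at members without a peak was not detectable at this depth.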
